A study of Fukomys damarensis and Heterocephalus glaber and Cavia porcellus with 28 samples.

Results

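The heart and the liver of the same guinea pigs were compared gene by gene. The samples are the 3 heart and 3 liver libraries of Cavia porcellus, 6 of the 28 libraries of the series, taken by their species and tissue labels, and all 13928 rows of the expression tables were members. The animals are 3 males of 2.3 months, numbered 7, 8 and 9 in the labels, and each gave both a heart and a liver. No treatment is given for any animal, and neither the strain nor the part of the heart or the lobe of the liver is given. The other libraries come from the mouse (5, animals of 2 months), the naked mole-rat (7, of 13 to 17 months) and the Damaraland mole-rat (10, of 36 to 48 months), and serve here only to show where the guinea pig differs. Hearts and livers number 3 and 2 for mouse, 3 and 4 for naked mole-rat, and 5 and 5 for Damaraland mole-rat. Libraries were made from total RNA depleted of ribosomal RNA, which keeps unspliced and non-polyadenylated transcripts.

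Heart muscle contracts without rest and draws its energy from the oxidation of fatty acids, lactate and ketone bodies in densely packed mitochondria. Liver makes most plasma proteins, exports glucose, lipoproteins and bile acids, and disposes of nitrogen as urea. Many steps of metabolism are served by a muscle and a liver form of the same enzyme, each from its own gene. The guinea pig, like humans and unlike the mouse, cannot make ascorbate, and is used as a model of lipoprotein metabolism.

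Values below are scaled reads: whole reads recovered from the deposited values and divided by a factor for each library that corrects for depth and composition. Reads are not divided by transcript length, so levels are compared between tissues for a gene and never between genes. Where 3 values stand in a row, they are those of animals 7, 8 and 9. Differences are heart minus liver on the scale of log2(scaled reads + 1), which understates the difference of genes with few reads, and are given with the standard error of the limma fit. A gene was called where the adjusted p was under 0.05 and the difference at least 1.

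Depth was 16129660 to 20551768 reads in the hearts and 13945522 to 21467939 in the livers. Between 9.8% and 12.64% of genes had 0 reads in a library. Libraries of a tissue were alike, with a Spearman correlation across genes of 0.976 to 0.978 within heart and 0.961 to 0.980 within liver, and of 0.568 to 0.601 between tissues. Mitochondrially encoded genes took 17.99% of the reads in the heart of animal 7, 5.42% and 7.4% in the hearts of animals 8 and 9, and 4.04% to 4.26% in the livers. The labels of tissue held in every library: all 10 cardiomyocyte markers in the tables were higher in heart and 9 of 10 hepatocyte markers in liver, and the exception was Apoa1, described below. Reads of the other organ's markers were present at a low level in every library. The median hepatocyte marker other than Apoa1 stood in hearts at 0.064%, 0.132% and 0.032% of its mean liver level, and the median cardiomyocyte marker stood in livers at 0.068%, 0.454% and 0.150% of its mean heart level. Whether cells of the organ or carried-over RNA gave these reads was not tested, nor was their effect on the folds below.

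The tissues differed across much of the transcriptome. Of 11455 genes with a mean of at least 10 scaled reads, 5329 were called, which is 46.5% of those tested. Of these, 2750 were higher in heart (24% of genes tested) and 2579 higher in liver (22.5%). These shares are the background for the list and marker counts below. Heart and liver libraries did not overlap at 7717 of the genes tested (67.4%), and at 5270 of the called genes. The differences were often very large: 442 genes were higher in heart by at least 5 on the log2 scale and 460 higher in liver by as much. A further 3482 genes were not called and had a difference under 0.5 in size. Scaling by total reads in place of the median ratio moved the median difference of all genes from -0.001 to 0.310 and gave 3413 genes higher in heart and 2021 higher in liver, so that 62.8% and not 51.6% of calls were on the heart side. The p-values rest on 3 animals. They come from a fit that takes the 6 libraries as independent and draws each gene's variance toward a trend shared by all genes. In whole tissue, fewer cells of a type and less RNA per cell cannot be told apart.

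**Figure D1:**
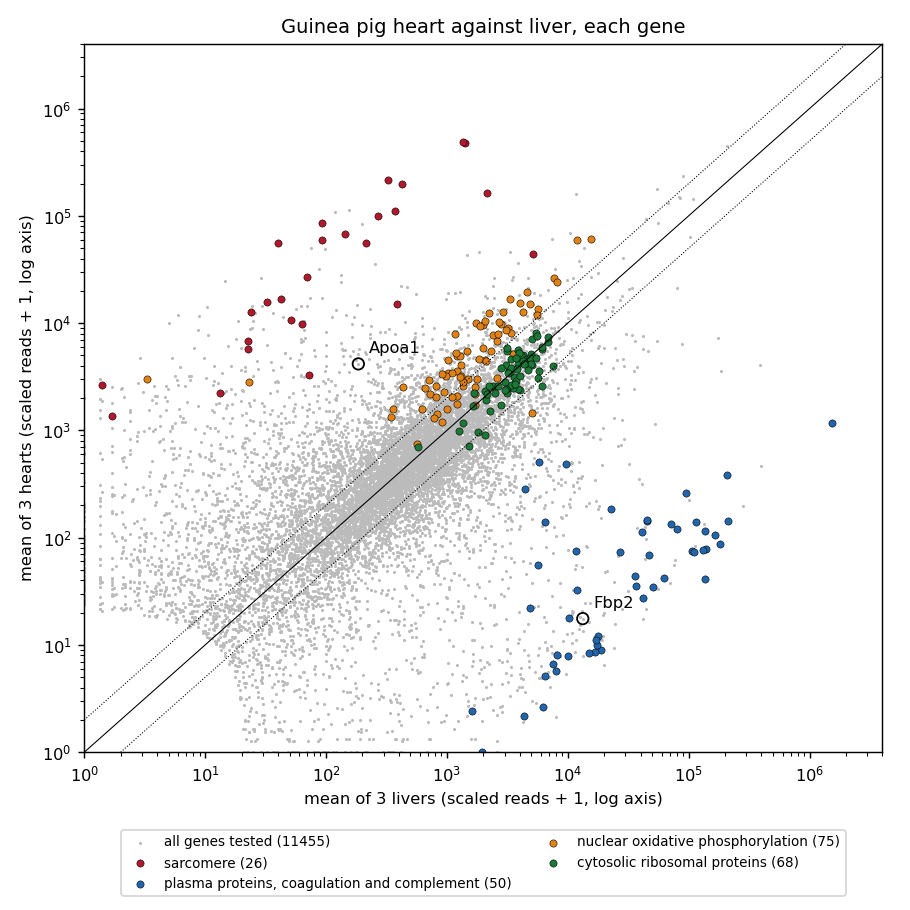
Mean scaled reads + 1 of each of the 11455 genes tested in the 3 guinea pig livers (x, log axis) and the 3 hearts (y, log axis), with 4 groups of genes coloured; the solid line marks equal levels and the dotted lines a difference of 1 on the log2 scale. Sarcomere genes lie far above the line, plasma, coagulation and complement genes far below it, nuclear oxidative phosphorylation genes mostly just above it and ribosomal protein genes along it, while Apoa1 and Fbp2 are circled.

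Of the 12 genes with the largest heart excess, Yipf7, a member of a family of Golgi membrane proteins, had 3012, 2932 and 2999 scaled reads in the hearts and a single read in the liver of animal 8, a ratio of 8148 (95% counting interval 1462 to 321812). Bves, a popeye-domain protein of the cardiomyocyte membrane that binds cyclic AMP, had 13135, 10746 and 11638 against 1.22, 7.41 and 6.18 scaled reads (2398-fold). Perm1, a muscle regulator of mitochondrial genes, had 10165, 9382 and 10348 against 4.89, 1.06 and 6.18 (2465-fold). Hearts and livers were far apart for all 3 genes, with differences of 11.19 ± 0.36, 11.17 ± 0.44 and 11.13 ± 0.42 and adjusted p-values of 1.48e-08, 3.88e-08 and 2.84e-08.

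Ckmt2, the creatine kinase of sarcomeric mitochondria, had 24412, 25814 and 23721 scaled reads in hearts and 2.44, 19.1 and 19.6 in livers. Gabra5, a subunit of the GABA-A receptor best known from the brain, had 2889, 1320 and 1850 scaled reads in hearts and no read in any liver, at least 1840-fold higher against a floor of 3 reads over the 3 livers. Rxfp1, the receptor of the hormone relaxin, had 2024, 3067 and 2598 in hearts and 2 reads in the liver of animal 9, a ratio of 3502 (95% counting interval 969.5 to 28918). The rest of the 12 largest heart differences were Ppp1r3a, which brings protein phosphatase 1 to glycogen in muscle, Lix1, 3425401B19Rik, Myl3, Mb and Fbxo40, at 10.57, 10.56, 10.56, 10.53, 10.51 and 10.49. Mb, which encodes the oxygen store myoglobin, had 102391, 95032 and 127256 scaled reads in hearts and 14.7, 235 and 106 in livers, lowest in the liver of animal 7 where other cardiomyocyte genes were lowest too.

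The sarcomere list was higher in heart without exception: 26 of 26 tested members were called, against a background of 24%, with a median difference of 8.81 where the median of all genes tested was -0.001. The alpha myosin heavy chain Myh6 had 441569, 518048 and 471310 scaled reads in hearts and 373, 2682 and 1206 in livers (336-fold). The beta chain Myh7, the slower motor, had 229089, 504133 and 733465 in hearts and 336, 2740 and 990.4 in livers (361-fold). The chains differed in how even they were between animals: Myh6 kept within 2.71% to 3.37% of all reads of a heart, while Myh7 ran from 1.41% in animal 7 to 4.43% in animal 9. Myosin heavy chains, like the actins and enolases, are close paralogues, and how reads were divided among them is not given in the sources used here. The M-band protein Myom1 had the narrowest spread of the large differences, 10.43 ± 0.18 (adjusted p = 1.87e-09).

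Of the sarcomere genes, 25 had a mean liver level between 0.0154% and 2.56% of their heart level, with a median of 0.271%. Tnnc1, the calcium sensor troponin C of heart and slow muscle, was the exception at 11.7%, with 6639, 4483 and 4283 scaled reads in livers and 33305, 50252 and 48486 in hearts (3.10 ± 0.27). Nrap, which anchors actin at the cell junctions and belongs to the intercalated disc list, stood at 20% with 1660, 3542 and 2767 in livers and 12403, 13113 and 14270 in hearts. Levels of these genes in the 3 livers did not follow the order of the other cardiomyocyte genes for Tnnc1, which was highest in the liver of animal 7, and did follow it for Nrap.

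Calcium handling genes were called higher in heart for 12 of 16 members tested (75.0%) and higher in liver for 3 (18.8%). All genes tested gave 24% and 22.5%. Trdn, which couples calsequestrin to the release channel, had 1482, 1632 and 1530 scaled reads in hearts and 1 read in the livers, a ratio of 4231 (95% counting interval 759 to 167103). Casq2, the calcium buffer of the sarcoplasmic reticulum, had 7726, 7510 and 8062 against 2.44, 22.2 and 4.12, and the release channel Ryr2 had 107830, 115329 and 119799 against 89.2, 223 and 145. The 3 members higher in liver were genes with wider roles: Stim1, the calcium sensor of the endoplasmic reticulum, at -2.51 ± 0.21, Asph at -1.26 ± 0.22 and Sri at -1.02 ± 0.18. The call of Sri was lost without the heart of animal 8 or the liver of animal 9 (-0.98 and -0.90), and those of Sri and Asph were lost when libraries were scaled by total reads (-0.72 and -0.95).

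Among cardiac ion channels, 12 of 18 tested members were higher in heart and 1 in liver (66.7% and 5.6%, against 24% and 22.5% of all genes). Cacna1h, a T-type calcium channel, led with 16573, 13529 and 13597 scaled reads in hearts and 39.1, 25.4 and 20.6 in livers (513-fold). Kcnh2, a channel of repolarisation, had 4580, 3028 and 4412 against 14.7, 16.9 and 14.4. Of intercalated disc genes, 9 of 14 were higher in heart (64.3%, against 24% of all genes) and none in liver. They were led by the actin-binding Xirp2 (503-fold), Ctnna3 (14.7-fold) and desmoplakin, Dsp (9.31-fold).

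Cardiac transcription factors were higher in heart for 16 of 19 members tested. Esrrg, a nuclear receptor of oxidative metabolism, had 1915, 1252 and 1491 scaled reads in hearts and 0, 5.29 and 2.06 in livers (633-fold). Ankrd1, a stretch-responsive cofactor, had 7961, 10781 and 18800 against 6.11, 69.9 and 29.9, and the cardiac homeobox factor Nkx2-5 had 1155, 1040 and 959 against 1.22, 11.7 and 0. Tbx3, a T-box factor of the conduction system, was the member higher in liver, with 244, 361 and 377 in hearts and 2087, 1337 and 2024 in livers (-2.47 ± 0.24). Heart and liver libraries did not overlap for any of these 4 genes, as at 67.4% of all genes tested.

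Of natriuretic and adrenergic genes, 9 of 13 were higher in heart and 1 in liver (69.2% and 7.7%, against 24% and 22.5% of all genes). Nppa, which encodes atrial natriuretic peptide, had 393, 12847 and 1086 scaled reads in hearts and 3.67, 0 and 2.06 in livers (9.51 ± 1.10). The heart of animal 8 stood far above the other hearts, as it did for the atrial light chain Myl4 (138, 7754 and 61.5) and for sarcolipin, Sln (113, 1918 and 355). The summed level of the 5 atrial markers in the tables ran from 2731 to 24576 scaled reads in hearts, and how much atrium each piece held was not tested. Corin, the protease that activates the natriuretic peptides, was more even, at 950.1, 810.3 and 630.4 in hearts and 1.22, 5.29 and 3.09 in livers. Chrm2, the muscarinic receptor that slows the heart, differed by 6.0 ± 0.43. Adra1a, an alpha-1 adrenergic receptor, was the member higher in liver, at 167, 93.5 and 81.3 in hearts and 1119, 1849 and 2187 in livers (-3.92 ± 0.33, adjusted p = 4.94e-06).

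Of 10 creatine and adenylate genes tested, 7 were higher in heart and 3 in liver, against backgrounds of 24% and 22.5%. Liver had the enzymes of synthesis: Gatm, the first step, had 33.3, 42 and 16.9 scaled reads in hearts and 20307, 38013 and 35765 in livers (1021-fold), and Gamt, the second step, 595, 709 and 582 and 3387, 7110 and 6358 (8.94-fold). Heart had the transporter Slc6a8, with 2299, 1318 and 2186 against 23.2, 22.2 and 27.8 (79.2-fold), and the kinases Ckm (432-fold) and Ckmt2 (1801-fold).

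The largest liver differences were secreted plasma and lipoprotein proteins. Apoa2, a protein of high-density lipoprotein, had 2.38, 0.955 and 0 scaled reads in hearts and 3898, 12973 and 7022 in livers (7167-fold, -11.88 ± 0.52). Ttr, the carrier of thyroxine and retinol-binding protein, had 45.2, 51.5 and 22.8 against 123972, 100759 and 187248 (3446-fold). Apoc1, a small apolipoprotein, had 9.52, 12.4 and 2.97 against 14658, 28367 and 29247 (2903-fold). Apela, which encodes a peptide ligand of the apelin receptor, had no read in any heart and 1559, 3652 and 2537 scaled reads in livers, at least 2856-fold higher against a floor of 3 reads over the 3 hearts. The remaining members of the 12 were Mettl7b, Apcs, Saa4, F12, Hrg, Car5a, Fetub and Agxt2, between -11.67 and -11.22, most of them plasma proteins. Car5a is a mitochondrial carbonic anhydrase, and Agxt2 a mitochondrial aminotransferase.

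All 21 tested plasma protein genes and all 29 coagulation and complement genes were called higher in liver, against a background of 22.5%, with median differences of -10.56 and -10.36. Albumin, Alb, had 1097, 2027 and 403 scaled reads in hearts and 961101, 1952070 and 1688589 in livers (1305-fold), where it took 5.64% to 9.35% of all reads. C8a of the membrane attack complex had 7.93, 12.4 and 1.98 against 12424, 15613 and 17304, and prekallikrein, Klkb1, 1.59, 1.91 and 0 against 2871, 5503 and 4746. Values of these genes in heart were lowest in animal 9, as was the median hepatocyte marker.

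Endoplasmic reticulum genes of the secretory pathway were higher in liver for 23 of 33 members and in heart for none, by far smaller amounts, with a median of -1.25. Pdia4 and P4hb, which form disulfide bonds, were 7.8-fold and 6.15-fold higher in liver, and the secretory regulator Xbp1 was 4.38-fold higher. With libraries scaled by total reads, 16 of 33 were called.

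Of the apolipoprotein and lipoprotein list, 15 of 18 were higher in liver, with a median of -7.34, and 1 was higher in heart. That member was Apoa1, the main protein of high-density lipoprotein. It had 3760, 4440 and 4305 scaled reads in hearts and 83.1, 319.8 and 149 in livers, a heart excess of 22.6-fold (4.70 ± 0.40, adjusted p = 5.38e-06). Its partner Apoa2 and the lipoprotein lipase inhibitor Apoc3, with 61.9, 39.1 and 9.91 in hearts and 37800, 95748 and 74945 in livers, were on the liver side by -11.88 and -11.07.

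Metabolic functions known from liver followed. Urea cycle and glutamine genes were higher in liver for 11 of 14 members, led by Cps1, which fixes ammonia (1013-fold), the glutaminase Gls2 (836-fold) and Otc (833-fold). Amino acid catabolism was higher in liver for 37 of 47, with Ftcd, an enzyme of histidine breakdown, at 7.14, 17.2 and 8.92 scaled reads in hearts and 17444, 18179 and 22620 in livers (-10.73 ± 0.29, adjusted p = 9.53e-09). Its 2 members higher in heart were enzymes of branched-chain amino acid breakdown, the transaminase Bcat2 (1649, 1776 and 1644 against 494, 523 and 406) and Ivd (5151, 5402 and 5562 against 1963, 2210 and 2295).

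Gluconeogenesis and fructose genes were higher in liver for 17 of 20 members and in heart for 2. The cytosolic carboxykinase Pck1 had 15.9, 26.7 and 11.9 scaled reads in hearts and 12259, 12740 and 34170 in livers, highest in the liver of animal 9, and G6pc, which releases glucose, had 8.72, 15.3 and 3.96 against 9453, 10287 and 13026. The members higher in heart were Ppargc1a, the coactivator of mitochondrial genes (9.46-fold), and the alanine transaminase Gpt (4.06-fold, 2.14 ± 0.32).

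Bile acid synthesis and transport genes were higher in liver for 17 of 22, led by the bile acid ligase Slc27a5 (1665-fold), the export pump Abcb11 (1272-fold) and the conjugating enzyme Baat (981-fold). Cyp7a1, the rate-limiting enzyme of bile acid synthesis, had 548, 5436 and 1390 scaled reads in livers, highest in animal 8, against 16.7, 15.3 and 10.9 in hearts (-6.74 ± 0.67). The member higher in heart was Cyp46a1, which hydroxylates cholesterol, with 23, 34.4 and 23.8 in hearts and no read in any liver, at least 24.6-fold higher against a floor of 3 reads. Xenobiotic genes were higher in liver for 23 of 27, led by Cyp2e1 (1432-fold), Cyp2f2 (1644-fold) and Cyp1a2 (1341-fold), and Cyp1b1 was higher in heart (57.1-fold).

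Hepatocyte transcription factors were higher in liver for 19 of 21 members and in heart for none. Hnf4a, the factor that maintains hepatocyte identity, had 8.72, 15.3 and 10.9 scaled reads in hearts and 8421, 8967 and 12232 in livers (849-fold), and the bile acid receptor Nr1h4 had 15.1, 6.68 and 1.98 against 3779, 4202 and 5067. Creb3l3, a fasting-responsive factor, had 3 reads in the hearts, all in animal 8, and 882, 843 and 2008 scaled reads in livers, a ratio of 1376 (95% counting interval 471 to 6672). Iron genes were higher in liver for 13 of 18 (72.2%) and in heart for 2 (11.1%), against 22.5% and 24% of all genes. Those in liver were led by the iron sensor Tfr2 (957-fold) and Tmprss6 (802-fold). Bmp6, a signal for hepcidin, was higher in heart (9.28-fold), as was the transferrin receptor Tfrc (1.11 ± 0.27). The call of Tfrc was lost without the heart of animal 7 (0.95) or the liver of animal 7 (0.94).

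Gulo, the enzyme that guinea pigs lack, has no row in the tables. Of the other ascorbate and glucuronate genes, 10 of 14 were higher in liver and none in heart. Rgn, the lactonase upstream of the missing step, had 13.5, 35.3 and 2.97 scaled reads in hearts and 11777, 12602 and 13501 in livers (732-fold). Slc23a1, an ascorbate transporter, had 5.55, 1.91 and 0 against 312, 451 and 326 (146-fold), and the xylulose kinase Xylb had 7.93, 7.64 and 5.95 against 1401, 1578 and 1907 (227-fold). Heart and liver libraries did not overlap at 11 of the 14 genes, against 67.4% of all genes tested.

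**Figure D2:**
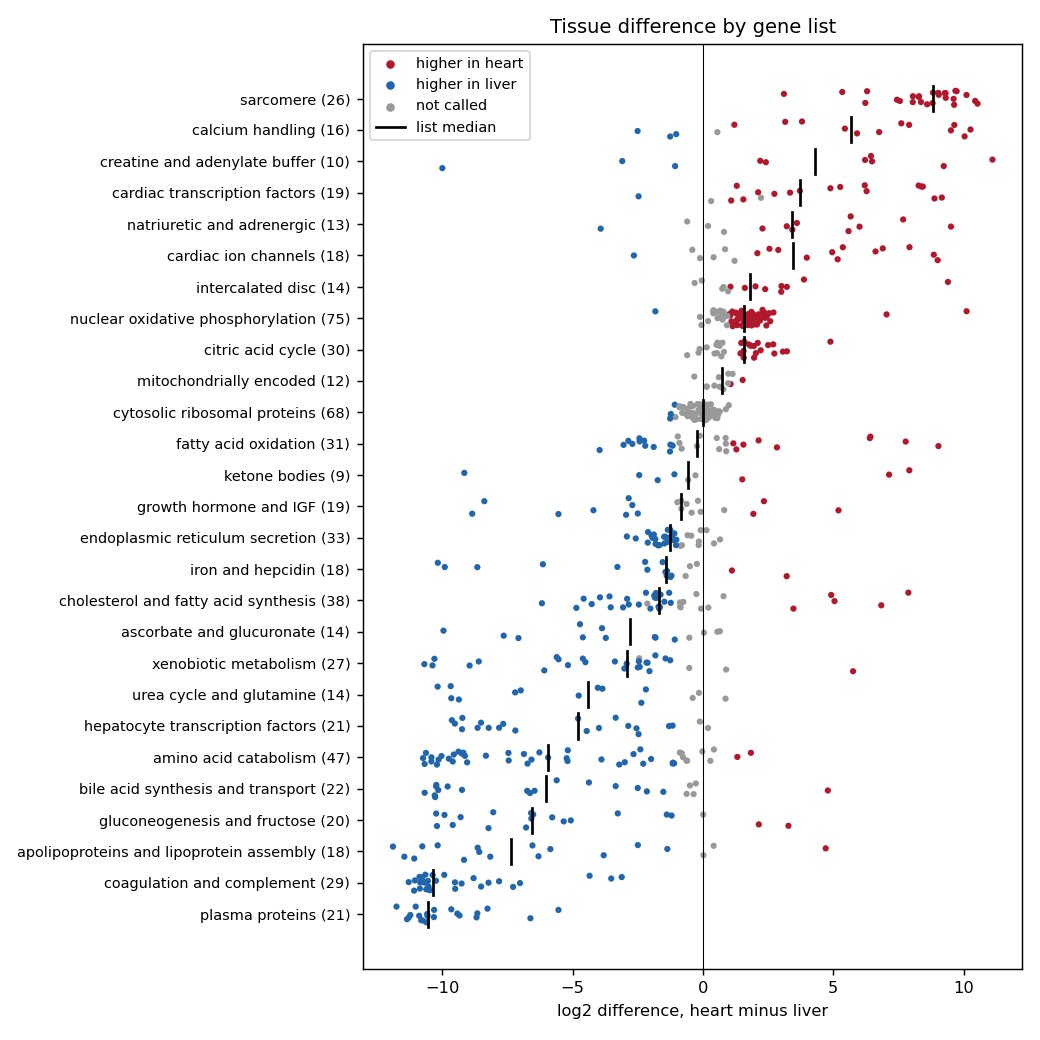
Log2 difference, heart minus liver, of each tested member of 27 gene lists, sorted by the list median (black bar), with red for genes called higher in heart, blue for higher in liver and grey for not called; numbers tested stand beside the names. List medians run from 8.81 for the sarcomere to -10.56 for plasma proteins, and ribosomal protein genes centre on -0.01.

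Most genes of mitochondrial respiration were higher in heart. Of 75 nuclear oxidative phosphorylation genes tested, 58 were higher in heart and 1 in liver, with a median of 1.58 and a range from -1.82 to 10.11. The largest differences were those of the heart and muscle forms Cox8b (3108, 3413 and 2460 against 3.67, 3.18 and 0) and Cox7a1 (3337, 1797 and 3367 against 9.78, 33.9 and 22.6), and the member higher in liver was Cox6a1, the general form of a subunit whose muscle form has no row (-1.82 ± 0.28). Citric acid cycle genes were higher in heart for 18 of 30 and in liver for none, with a median of 1.56, led by Idh3a (29.4-fold), citrate synthase, Cs (9.26-fold), and Mdh1 (7.95-fold). Of 12 mitochondrially encoded genes, 2 were called higher in heart (16.7%, under the 24% of all genes), mt-Co2 at 1.52 ± 0.50 and mt-Nd6 at 1.06 ± 0.34. Neither call held without the heart of animal 7 (1.04 and 0.91), which had the highest mitochondrial share, or without the liver of animal 9 (1.54 and 1.10). Scaling by within-library ranks (quantile normalisation) gave 6 calls higher in heart among these 12.

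Of 31 fatty acid oxidation genes, 9 were higher in heart and 12 in liver, or 29.0% and 38.7% where all genes gave 24% and 22.5%. The median was -0.22. Scaling by total reads gave 12 and 9 with a median of 0.08, and within-library ranks gave 12 and 10. Heart had Lpl, the lipase that frees fatty acids from lipoproteins, at 48239, 49099 and 48986 scaled reads against 96.6, 130.2 and 62.8 (505-fold), the carnitine transferase Cpt1b (199-fold) and the carrier Fabp3 (81-fold). Liver had the peroxisomal enzyme Ehhadh (15.7-fold) and Acad11 (7.26-fold). The acyl-CoA dehydrogenase Acadl, of long chains, was on the heart side with 7470, 8392 and 8765 against 77, 136 and 85.5 (82.6-fold), and Acadm, of medium chains, on the liver side with 3216, 2839 and 3278 against 16226, 13538 and 21536 (5.5-fold).

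Of 9 ketone body genes, 3 were higher in heart and 4 in liver, or 33.3% and 44.4%, against the same backgrounds, and either other scaling gave 3 and 3. Oxct1, the enzyme of ketone use that hepatocytes lack, had 26331, 38329 and 40939 scaled reads in hearts and 207, 334 and 213 in livers (140.2-fold). Slc16a7, a transporter of pyruvate, lactate and ketone bodies, had 13429, 12724 and 17361 against 30.6, 123 and 53.5 (210.3-fold). Bdh1 was the third member higher in heart (2.83-fold), and among those higher in liver was the dehydrogenase Bdh2, with 136, 108 and 125 scaled reads in hearts and 492, 792 and 774 in livers (5.57-fold).

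Cytosolic ribosomal protein genes were level between the organs, with 65 of 68 not called and a median of -0.01. Rpl3 was called higher in liver with 2441, 2465 and 2878 scaled reads in hearts and 5756, 5812 and 6714 in livers, and the calls of Rpl38 and Rps21 rested on overlapping libraries and were lost without the heart of animal 8 (-0.75 and -0.82). The call of Rpl38 was also lost with the animal as a block. Scaling by total reads moved the median to 0.30, near the shift of all genes, with 2 called higher in heart and none in liver. Rpl3l, the muscle form of Rpl3, had 2248, 2064 and 2776 in hearts and 19.6, 24.4 and 13.4 in livers (124-fold). Of 19 growth hormone and IGF genes, 8 were higher in liver (42.1%) and 3 in heart (15.8%), where all genes gave 22.5% and 24%. Those in liver were led by the prolactin receptor Prlr, with 1 read in the hearts (a ratio of 1409 (95% counting interval 253 to 55633)), Igfbp1 (787-fold) and Igfals (46.7-fold). Those in heart were Igfbp6 (35.1-fold), Igfbp5 (4.74-fold) and the receptor Igf1r (3.87-fold).

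Metabolic enzymes with a muscle and a liver or general form were compared as pairs. Of 25 pairs listed, 22 had both genes in the tables. The muscle form was higher in heart in 21 of these and the other form higher in liver in 12, with both in 11 pairs. The pairs furthest apart included those of glycogen phosphorylase, glucose transport and pyruvate kinase. Glycogen phosphorylase was Pygm in heart (14240, 10167 and 18615 against 36.7, 121 and 26.8) and Pygl in liver (102, 189.9 and 86.2 against 7255, 7435 and 8332). Glucose transport was Slc2a4 in heart (7.36 ± 0.22) and Slc2a2 in liver (-10.23 ± 0.59), and pyruvate kinase Pkm (5.77 ± 0.19) and Pklr (-8.22 ± 0.34).

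Glycogen synthase was the pair in which the muscle form was not called. Gys1 had 5579, 4790 and 6037 scaled reads in hearts and 3520, 6109 and 2281 in livers, which overlapped (0.57 ± 0.32, adjusted p = 0.148), while Gys2 was higher in liver by 657-fold. In 2 pairs both forms were higher in heart: Pgam2 at 8.25 with Pgam1 at 1.99, and Pfkm at 7.87 with Pfkl at 1.13. Pfkl, the liver form of phosphofructokinase, had 3112, 4138 and 5366 in hearts and 1806, 1442 and 2525 in livers, and its call was lost without the heart of animal 9 (0.95) or the liver of animal 8 (0.94).

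In 8 pairs the second form was not called: Acaca (0.21), Ldha (0.39), Cox7a2 (-0.11), Cox8a (-0.06), Suclg2 (0.14), Eef1a1 (-0.69), Phka2 (-0.92) and Ppp1r3b (0.73). Phka2 had 821, 834 and 855 scaled reads in hearts and 1558, 1391 and 1828 in livers, which did not overlap (adjusted p = 0.00106), and it was called without the liver of animal 8 (-1.01). Ppp1r3b was called higher in heart with total reads (1.04) or within-library ranks (1.05). The muscle partners were higher in heart, Acacb by 118-fold, Ldhb by 13.7-fold, Sucla2 by 6.53-fold, Eef1a2 by 372-fold and Phka1 by 4.12-fold. Smaller liver differences were called for Eno1 (-1.05), Phkg2 (-1.09), Prkaa1 (-1.25), Slc25a5 (-1.32) and Rpl3 (-1.23), beside Eno3 (6.91), Phkg1 (2.71), Prkaa2 (3.91), Slc25a4 (2.73) and Rpl3l in heart. The calls of Eno1, Phkg2, Prkaa1 and Rpl3 were lost with scaling by total reads (-0.74, -0.79, -0.94 and -0.92), and those of Eno1 and Phkg2 also without the heart of animal 9 (-0.96 and -0.88).

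Hk2, the muscle hexokinase, had 509, 426 and 499.5 scaled reads in hearts and 137, 102 and 114 in livers, and Aldoa, the muscle aldolase, differed by 4.76 ± 0.31. Carnitine palmitoyltransferase differed between animals as well as tissues. Cpt1a, the liver form that admits fatty acids to mitochondria, had 339, 416 and 1192 in hearts and 824, 2692 and 7564 in livers, highest in animal 9 in both organs. Its libraries overlapped, and its call (-2.21 ± 0.72, adjusted p = 0.0236) was lost without the heart of animal 7 or 8 (-1.85 and -2.0) or the liver of animal 9 (-1.44). Within each animal the liver was higher, with heart minus liver between -2.69 and -1.28. The call held in the limma fit with the animal as a block (adjusted p = 0.000541). Cpt1b was even at 6237, 6291 and 6228 in hearts and 14.7, 52.9 and 26.8 in livers.

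**Figure D3:**
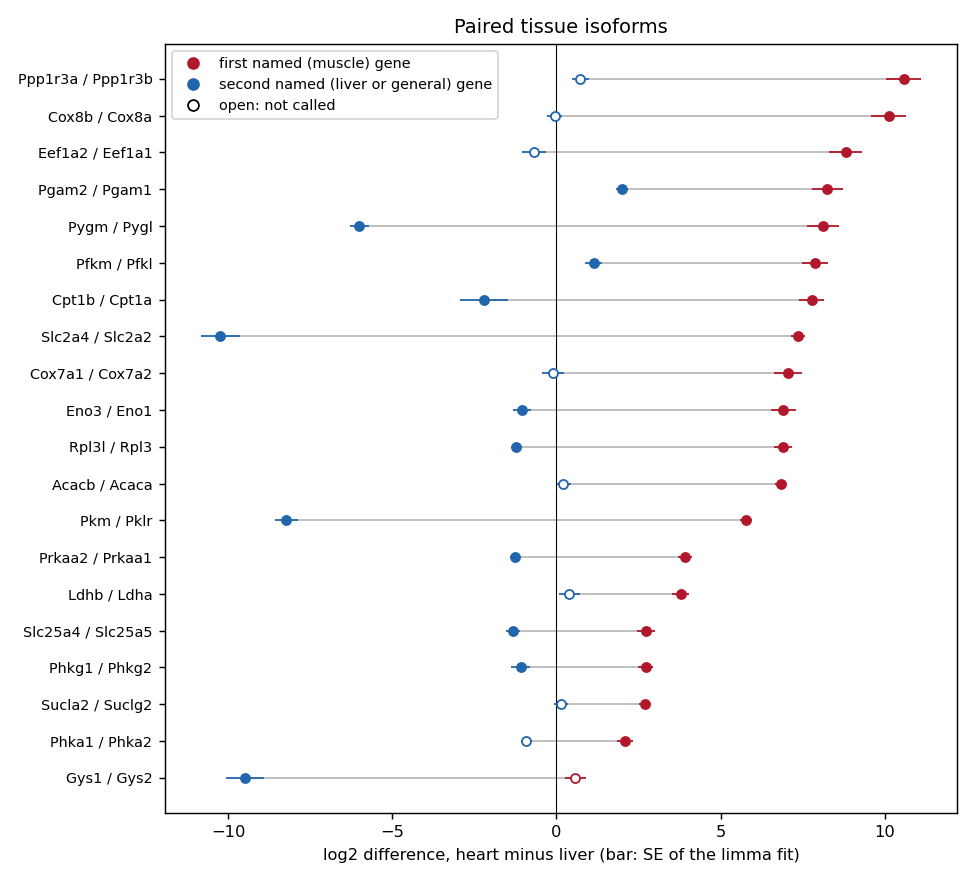
Log2 difference, heart minus liver, with the standard error of the limma fit, of both genes of 20 isoform pairs, with red for the muscle form, blue for the liver or general form and open symbols for genes not called. The muscle form lies to the right of its partner in every pair drawn, and the second form is on the liver side by over 5 in Slc2a2, Gys2, Pklr and Pygl.

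Markers of other cells showed what else the pieces held. Cell types that are resident in liver were higher there: all 7 sinusoidal endothelial markers, with a sum of 18275 to 20534 scaled reads in livers and 971.3 to 1436 in hearts, and all 7 stellate cell markers, with 9738 to 12995 against 871.2 to 1114. The scavenger receptor Stab2 had 18.2, 15.3 and 12.9 in hearts and 6245, 5776 and 7973 in livers, and Lrat, which stores retinol in stellate cells, had 2 reads in the hearts and 794, 1018 and 1609 scaled reads in livers. Fibroblast markers were higher in heart for 7 of 8, with a sum of 59719 to 152704 against 11412 to 17952, and the heart of animal 8 was highest for Col3a1 (40066, 105703 and 36278) and Col1a2 (11780, 28472 and 10367). Smooth muscle and pericyte markers were higher in heart for 6 of 8 and general endothelial markers for 4 of 9, against 24% of all genes. None of either was higher in liver.

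Immune markers were mostly on the liver side. The Kupffer cell product Cd5l had 3.17, 3.82 and 2.97 scaled reads in hearts and 1984, 2453 and 2574 in livers (704-fold), and 6 of 7 macrophage markers were higher in liver. The exception was Cd163, the haemoglobin scavenger receptor of resident macrophages, with 439, 662 and 633 in hearts and 8.56, 10.6 and 5.15 in livers (71.4-fold, 6.02 ± 0.34). Of the macrophage markers higher in liver, C1qb, C1qc and Csf1r lost the call with scaling by total reads (-0.89, -0.96 and -0.79). The calls of C1qb and Csf1r were also lost without the liver of animal 8 (-0.79 and -0.89). Cd3e, of T cells, had 32.5, 1.91 and 5.95 against 1591, 1813 and 2416, while Cd3d, another chain of the same receptor complex, had 9.52, 1.91 and 0.991 against 2.44, 6.35 and 13.4 and was below the level tested. In all, 4 of 6 lymphocyte markers tested were higher in liver.

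Bile duct markers were higher in liver for 6 of 7, with Krt19 at 11.1, 37.2 and 52.5 in hearts and 2905, 1478 and 1112 in livers. The seventh, Spp1, which encodes osteopontin, was higher in heart, with 3028, 1528 and 959 in hearts and 1.22, 15.9 and 1.03 in livers (304-fold, 8.60 ± 0.77). The 3 adipocyte markers tested were all higher in heart, the lipase Lipe by 4.9-fold, Cidec by 2.99-fold and Fabp4, which endothelium also makes, by 76.2-fold, while Adipoq, Plin1 and Lep were below the level tested. The call of Cidec was lost without the heart of animal 8 (1.53) or the liver of animal 9 (1.39). The 6 adipocyte markers summed to 2305 to 4953 scaled reads in hearts and 152.8 to 236.1 in livers. The 6 skeletal muscle markers in the tables summed to 7.929 to 21.41 scaled reads in hearts and 14.41 to 31.77 in livers. The single erythroid marker present, Alas2, had 1263, 57.3 and 62.4 in hearts and 285, 93.2 and 267 in livers, which overlapped. The part of these cells in the differences above was not tested.

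**Figure D4:**
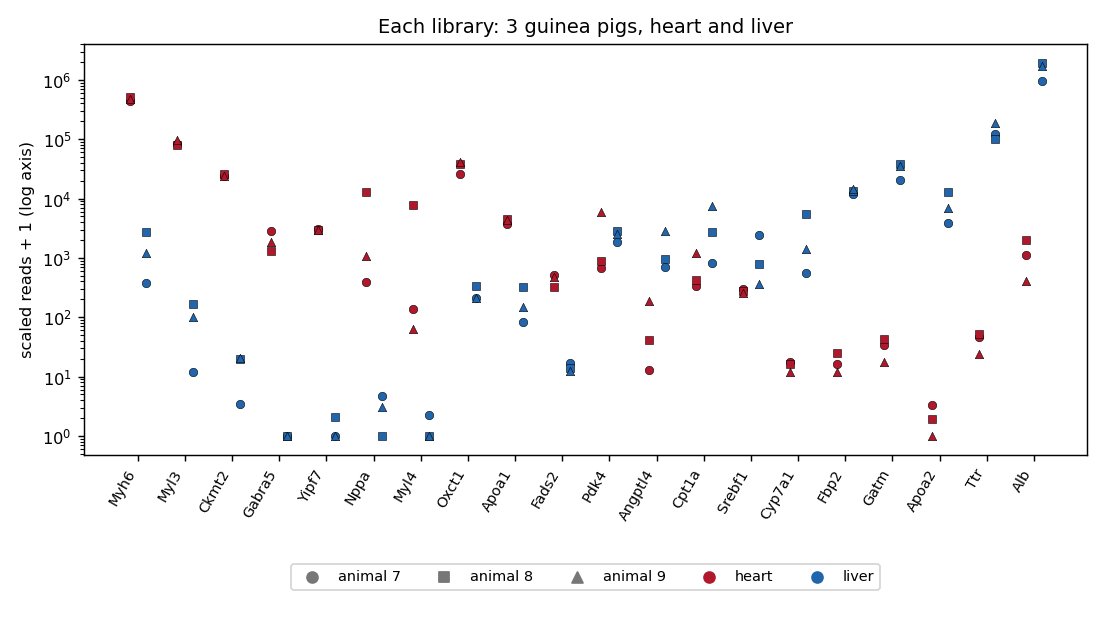
Scaled reads + 1 (log axis) of 20 genes in each of the 6 libraries, with red for heart, blue for liver and the symbol for the animal. Heart and liver are separate for most genes; Nppa and Myl4 are highest in the heart of animal 8, and Angptl4 and Cpt1a are highest in animal 9 in both organs.

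The heart-to-liver difference of the guinea pig was then set against that of the other species. Gene length and any factor common to both tissues of a species cancel at genes with ample reads in both. Where a tissue has few reads, the added read of the log scale keeps part of such a factor in the difference. With the 28 libraries in a fit, 10031 genes had a mean of at least 10 scaled reads in each species. The guinea pig difference differed from that of the mouse at 3519 genes (35.1% of genes tested), from that of the naked mole-rat at 3882 (38.7%) and from that of the Damaraland mole-rat at 3509 (35%). It was set apart from all 3, in the same direction, at 905 genes (9.02%): 462 more toward heart (4.61%) and 443 more toward liver (4.42%). The same rule set apart 13.9% of genes for the mouse, 11.6% for the naked mole-rat and 9.18% for the Damaraland mole-rat, with unequal numbers of libraries. The 3 contrasts share the guinea pig libraries, the mouse has 2 livers, and 1 naked mole-rat heart has a depth of 4089633 reads. With total reads, 63.8% and not 51.0% of the guinea pig genes were on the heart side. The animals also differ in age and, for 1 liver of the Damaraland mole-rat, in sex, and how rows were assigned to guinea pig genes is not given in the sources used here, so that species, age and gene assignment cannot be told apart.

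Apoa1 was among the genes furthest from the others. Its heart-to-liver difference was 4.72 ± 0.38 in guinea pig, -11.77 ± 0.43 in mouse, -6.42 ± 0.36 in naked mole-rat and -4.35 ± 0.30 in Damaraland mole-rat. The smallest of the 3 contrasts was 9.06, with a largest adjusted p of 4.85e-14. Of the 18 apolipoprotein genes tested, 5 were set apart toward heart (27.8%) and none toward liver, where all genes gave 4.61% and 4.42%. Others were Apom at -2.48, where the other species had -10.48, -6.27 and -7.02, and Lcat and Abca1, with nearest contrasts of 1.08 and 1.87. The contrast of Lcat was no longer called without any 1 heart (0.96 to 1.15) or without the liver of animal 7 or 8 (0.86 and 1.14).

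The liver excess of lipid synthesis genes, as a list, was smaller than in the other species. Of 38 cholesterol and fatty acid synthesis genes, 24 were higher in guinea pig liver (63.2%) and 5 in heart (13.2%). All genes tested gave 22.5% and 24%. Against the other species, 13 were set apart toward heart (34.2%) and none toward liver, where all genes gave 4.61% and 4.42%. The list median was -1.68 in guinea pig against -3.27, -3.16 and -3.15 in mouse, naked and Damaraland mole-rat. Pnpla3, a lipase of lipid droplets, had 425, 2088 and 1825 scaled reads in hearts and 61.1, 0 and 1.03 in livers and a difference of 7.74 ± 0.97, where the others had -1.55, -2.72 and -9.75. Fads2, the first desaturase of polyunsaturated fatty acids, had 505, 324 and 477 in hearts and 15.9, 12.7 and 11.3 in livers, at 4.91 ± 0.48 against -6.83, -2.64 and -3.36. Fads1, the next desaturase, was at 3.48 ± 0.41 against -4.60, -0.50 and -0.39. Me1, the malic enzyme that supplies NADPH, was at 5.03 ± 0.28 against -0.78, -1.29 and -3.07.

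Other members set apart had a smaller liver excess than in the other species, or none. Fasn, fatty acid synthase, was at -0.74 against -4.50, -3.82 and -4.55, and its livers varied from 1317 to 5987 scaled reads. The sterol enzymes Sqle, Lss, Cyp51 and Msmo1 were at -1.63, -1.22, -0.84 and -2.89, with nearest contrasts of 1.59 to 2.46. Elovl5, Elovl6 and Dgat1 were at -0.24, -2.12 and 0.80. The nearest contrast of Elovl6 was no longer called without the heart of animal 8 (1.22) or the liver of animal 9 (1.31). Acss2, which activates acetate and is in no list, was noted after its values were seen: it had 815, 1287 and 1151 scaled reads in hearts and 103, 119 and 77.2 in livers, at 3.44 ± 0.28 against -2.29, -2.47 and -2.41.

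The remaining genes of the 8 largest toward heart were Xk, a membrane protein of the Kell blood group complex, at 8.05, Pm20d1 at 3.36, Rgs16 at 3.95, Gltpd2 at 1.43 and Cldn1 at 3.15. Xk had 1661, 1125 and 1092 scaled reads in hearts and 0, 8.47 and 8.24 in livers, and the other species had differences of 0.46, 0.08 and -1.46. Cldn1, a tight junction protein, had 82.5, 41 and 23.8 in hearts and 1.22, 14.8 and 2.06 in livers, against differences of -8.51, -5.84 and -3.19. Gltpd2 was called within guinea pig at 1.43 ± 0.45, a call lost without the heart of animal 8 or 9 (1.30 and 1.37) or the liver of animal 9 (1.11).

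Fatty acid oxidation had 5 of 31 genes set apart toward heart (16.1%) and 1 toward liver (3.2%), where all genes gave 4.61% and 4.42%. Acadl was at 6.41 ± 0.21 against 2.06, 0.70 and 0.53, and Acadm went the other way, at -2.42 ± 0.25 against 1.66, -0.21 and 0.47. Slc16a7 was at 7.92 ± 0.34 against -1.75, 1.93 and 1.99. Spp1 was at 8.51 ± 0.66, where the mouse had -6.64 and the mole-rats 3.30 and 0.99.

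Toward liver, the largest contrast was that of Fbp2. This gene encodes the muscle form of fructose bisphosphatase, and Fbp1, the liver form, has no row in the tables. Guinea pig had 15.1, 23.9 and 10.9 scaled reads in hearts and 11972, 13473 and 14484 in livers (801-fold higher in liver), a difference of -9.59 ± 0.44, where mouse, naked and Damaraland mole-rat had 7.36 ± 0.49, 9.91 ± 0.41 and 7.85 ± 0.34. The smallest contrast was -16.95, with a largest adjusted p of 5.6e-17. Whether the row of the guinea pig holds the reads of its Fbp2, of its Fbp1 or of both was not tested.

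Ogdhl, a form of the oxoglutarate dehydrogenase subunit, had 7.14, 13.4 and 10.9 scaled reads in hearts and 3832, 2313 and 3368 in livers, at -8.08 ± 0.45 against 9.34, 2.86 and 6.06. Gatm was at -9.96 ± 0.50, where mouse, naked and Damaraland mole-rat had -1.49, 0.07 and -2.45. Polq, a DNA polymerase of end joining, had 8.72, 50.6 and 5.95 in hearts and 2858, 1911 and 2615 in livers, at -7.28 against 4.21, 0.62 and 1.76. Adgrd1, Sema3b, Scube2 and Scn3a completed the 8 largest, at -4.51, -3.72, -5.0 and -4.37, all on the heart side in the other species.

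Of 107 genes tested in the 7 heart lists, 4 were set apart toward heart and 10 toward liver (3.74% and 9.35%, where all genes gave 4.61% and 4.42%). Sarcomere genes were set apart at 2 of 26, both toward liver: Tnnc1, at 3.12 ± 0.28 against 8.86, 7.69 and 8.87, and desmin, Des, at 5.35 with a nearest contrast of -1.11 that was no longer called without the liver of animal 8 (-0.85). Nrap was at 2.40 ± 0.29 against 10.36, 6.81 and 8.08. Tnnc1 and Des are also the sarcomere genes with the highest liver level relative to heart in the guinea pig. Slc25a4, the ADP/ATP carrier of heart, and Ldhb were also nearer to level, at 2.74 and 3.80, with nearest contrasts of -1.33 and -1.79. Of 73 nuclear oxidative phosphorylation genes, 65 ribosomal protein genes and 33 secretory genes, none was set apart.

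The beta myosin chain Myh7 was near the mole-rats and not the mouse. Its heart-to-liver difference was 8.83 ± 0.54 in guinea pig, 1.68 ± 0.60 in mouse, 9.14 ± 0.51 in naked mole-rat and 7.97 ± 0.42 in Damaraland mole-rat, so that it was not set apart from all 3. For Alb the values were -10.56, -11.40, -6.95 and -9.58, and the list median of plasma proteins was -10.46 in guinea pig, -10.63 in mouse, -6.75 in naked mole-rat and -9.17 in Damaraland mole-rat. Larger guinea pig differences of liver genes such as C3 (-9.24) stand beside that lower range in the naked mole-rat, and its part in them was not tested.

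**Figure D5:**
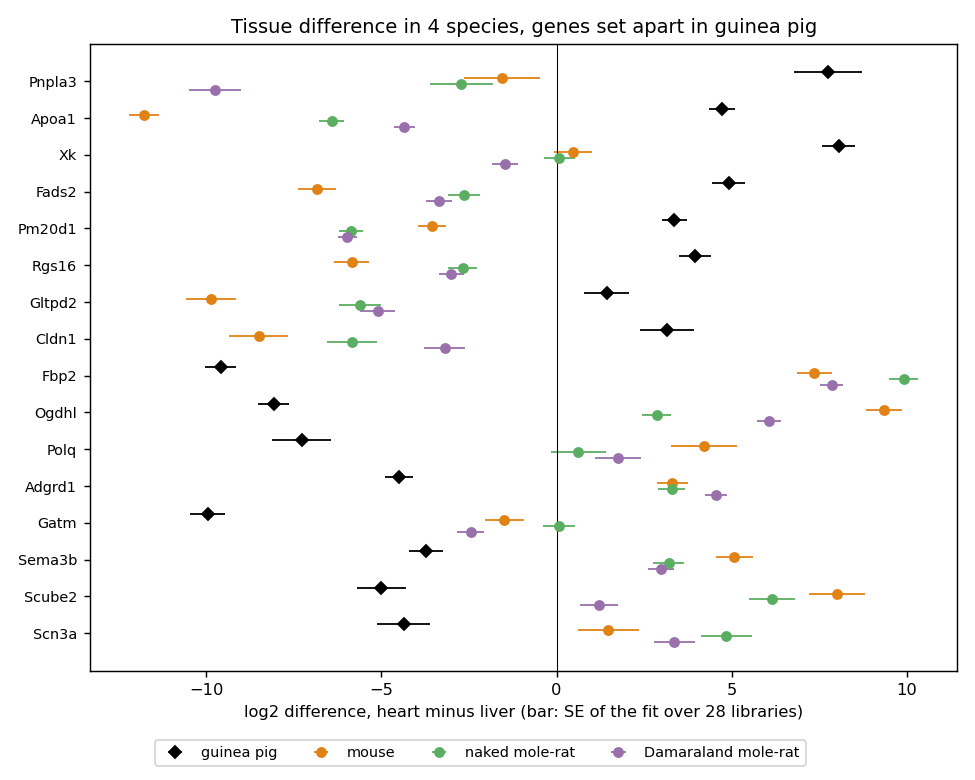
Log2 difference, heart minus liver, with the standard error of the fit over 28 libraries, in the 4 species for the 8 genes most set apart in guinea pig toward heart and the 8 most toward liver. The guinea pig (black diamonds) lies beyond the other 3 species in each row, and for Fbp2 it lies at -9.59 where the others lie at 7.36 to 9.91.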

How the data were processed

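Total RNA depleted of ribosomal RNA was sequenced, and expression was deposited in 1 table per tissue. Each table has 13928 rows named by mouse gene identifiers, and 13921 of these have a symbol. The file names give the deposited values as the authors' variance-stabilising transform of Salmon estimates, on a scale close to log2. The submitters' processing notes name cutadapt, Salmon, DESeq2 and the build GRCm38, without roles, and the transcripts that guinea pig reads were matched to, the annotation and the assignment of genes between species are not given in the sources used here. The tables were transformed separately, and a gene with 0 reads has the deposited value 5.3645 in heart and 4.2893 in liver. The tables hold 26 further columns of per-sample values (15 and 11) that were not used.

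The transform was inverted, and every value (100%) was then a whole multiple of what 1 read is worth in its library, at a tolerance of 0.01. These reads were divided by median-of-ratios size factors over the 6 libraries, and limma 3.58.1 in R 4.3.3 was fitted with a variance trend to log2(scaled reads + 1) over genes with a mean of at least 10 scaled reads, with Benjamini-Hochberg adjustment over all genes tested. The comparison with other species used a fit over 28 libraries with 8 groups. The procedure was also run on simulated data with few changed genes and groups otherwise equal. That run does not cover tissues that differ at 46.5% of the genes tested. Alternative settings were also computed, and the closing section gives their effect. In the setting named within-library ranks, the log2 values were quantile normalised, so that all libraries shared a set of values assigned by rank. The same fit followed, and its differences are on the log2 scale. Ratios with 1 to 3 reads in a tissue carry an exact Poisson interval, which, like the floor of 3 reads, covers counting error only.

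Hearts and livers pair by animal, from the individual label. The correlation of deviations from the tissue means over genes was -0.063, 0.118 and 0.177 for animals 7, 8 and 9. Hearts and livers of different animals gave -0.240 to 0.125, a range that holds the values of animals 7 and 8. The pairing therefore rests on the labels. Replicate numbers in the library names do not follow the animals, so the block was the animal.

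The genes, lists, markers and isoform pairs were chosen with earlier results of these data known. Genes named were the 12 largest non-overlapping called differences in each direction, up to 3 called members of each list on each side, every isoform pair, the 8 most set apart in each direction, set apart members of lists, and markers. Acss2, Elovl2, Cyp7a1, Cat, Fn1 and the genes described by animal in the closing section were chosen after their values were seen. Values of some single genes are not reported here, and the counts include those genes.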

Additional observations from a re-analysis of the deposited data

Results flagged for a closer look

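The genes below were picked out of the genes chosen for naming, and not of all genes tested. In each, the heart-to-liver difference of guinea pig differed from that of each other species by a test of the difference itself. They are a part of the 905 genes set apart, so their make-up follows the lists and rules of choice. The value given for each is the smallest of its 3 contrasts on the log2 scale, positive where guinea pig leaned more toward heart. The largest were those of Fbp2 (-16.95), Ogdhl (-10.94), Pnpla3 (9.29) and Apoa1 (9.06). Among named genes in no list, those toward heart included Xk (7.59), Pm20d1 (6.92), Rgs16 (6.63), Gltpd2 (6.53) and Cldn1 (6.34). The fatty acid elongase Elovl2 (5.81) and Acss2 (5.73), chosen after their values were seen, were also toward heart. Those toward liver included Polq (-7.90), Adgrd1 (-7.80), Sema3b (-6.72), Scube2 (-6.22) and Scn3a (-5.85).

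Most lipid genes picked out leaned more toward heart than in the other species, though many were still higher in guinea pig liver. In synthesis these were Fads2 (7.55), Me1 (5.81), Fads1 (3.86), Fasn (3.09), Cyp51 (2.46), Elovl6 (2.17), Msmo1 (1.83), Sqle (1.82), Lss (1.59), Elovl5 (1.59) and Dgat1 (1.48), and in lipoprotein metabolism Apom (3.79), Abca1 (1.87) and Lcat (1.08). In fatty acid use these were Acadl (4.34), Acsl3 (2.58), Lpl (1.97), Acsl5 (1.71) and Plin2 (1.60), with Acadm (-2.22) toward liver. Bile acid genes Scp2 (2.72), Amacr (2.22), Acox2 (2.19) and Cyp27a1 (2.05) leaned toward heart.

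Of genes of sugar, amino acid and ketone metabolism, Slc16a7 (5.92), Tkfc (3.96), Gpt (3.62), Aass (2.22), Slc38a3 (2.05), Ppp1r3b (1.24), Suclg2 (1.02), Cyb5r3 (1.02) and Slc6a8 (1.20) leaned toward heart, and Gatm (-7.51), Ldhb (-1.79), Sord (-1.44), Slc25a4 (-1.33), Pck2 (-1.33) and Slc16a1 (-1.30) toward liver. Growth factor genes Igfbp2 (4.15), Igfbp4 (2.31) and Igf1 (2.09) leaned toward heart. Iron and copper genes were Aco1 (1.16), Slc11a2 (-1.04), Steap3 (-2.38) and Cp (-1.60), and xenobiotic genes Cyp2u1 (2.42), Cyp4v3 (1.84), Arnt (-1.03) and Fmo2 (-2.94). Complement C3 (-2.42), Car5a (-1.65) and the nuclear receptor Esrra (-1.18) leaned toward liver.

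Of heart genes, Esrrg (2.89), Adra1b (3.37), Bves (2.18), Cacna1h (2.0), Fbxo40 (1.81) and Perm1 (1.73) leaned toward heart, and Tnnc1 (-4.57), Nrap (-4.41), Chrm2 (-2.46), Kcnj5 (-2.44), Kcnq1 (-2.30), Mef2c (-2.08), Asph (-1.31), Des (-1.11) and Cacna1c (-1.02) toward liver. Markers of other cells were Spp1 (5.21), Lrat (-3.27), Cnn1 (-2.12), Myh11 (-1.72) and Stab2 (-1.66). Leaving out a single guinea pig library ended the call for Arnt, Bves, Cacna1c, Car5a, Cnn1, Cp, Cyb5r3, Des, Elovl6, Esrra, Fmo2, Lcat, Pck2, Ppp1r3b, Slc11a2 and Suclg2, and without the liver of animal 7 the contrasts of Cyb5r3 and Fmo2 were 0.56 and -1.77. Among the genes given here, voom also ended the call for Cacna1h (1.35), Fbxo40 (1.93), Perm1 (1.90), Slc6a8 (1.14), Stab2 (-1.60) and Cnn1 (-2.54), total reads for Myh11 (-1.20), and a pseudocount of 8 for Perm1 (0.91) and Cnn1 (-0.44). No group has more than 5 libraries and those of guinea pig have 3, so single libraries were not searched for outlying values.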

How the results depend on the processing

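Testing against a difference of 1, in place of a threshold on the estimate, left 1817 genes higher in heart and 1584 higher in liver, and 162 and 119 genes set apart toward heart and liver, since it asks for a difference beyond the threshold and its error. Scaling by total reads or within-library ranks, a pseudocount of 8, a filter of 50 scaled reads, no size threshold and voom kept each of these 4 counts within 1.5 times. So did no filter, no variance trend and a fit over 28 libraries for the tissue counts, and centring on each species' median for the species counts. With the animal as a replicate block, 2751 genes were higher in heart and 2588 in liver, of which 5296 were calls of the fit without it, and 470 and 451 were set apart. Among the named genes the block ended the call of Rpl38 and added, among others, that of Elovl6 (-2.13). Leaving out each guinea pig library in turn gave 2656 to 2837 genes higher in heart, 2492 to 2599 higher in liver, 420 to 486 set apart toward heart and 415 to 454 toward liver. No named gene that was called changed direction under any alternative run: 134 of the single-gene results for tissue and 112 of those for species lost the call, 45 of each under the test against a difference of 1, and 4681 and 1257 kept it. Low depth limits genes near 10 scaled reads, where the added read of the log scale understates the difference. With 3 animals, 1 young age and males only, other guinea pigs were not sampled.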

Other observations

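Genes that respond to feeding and fasting differed between the 3 animals, and are given as values, chosen after they were seen and without a test. In the livers of animals 7, 8 and 9, Srebf1, the regulator of lipid synthesis, had 2407, 780.4 and 359 scaled reads, and Fasn had 5987, 2909 and 1317. Genes of fatty acid use were on the other side: Cpt1a had 824, 2692 and 7564, Angptl4, an inhibitor of lipoprotein lipase, had 699, 942 and 2796, and Pck1 had 12259, 12740 and 34170. Animal 9 was lowest for the first 2 and highest for the others.

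The heart of animal 9 was high for the same kind of gene. Pdk4, the kinase that shuts off pyruvate oxidation, had 684, 902 and 5942 scaled reads in hearts and 1840, 2833 and 2486 in livers, Angptl4 had 11.9, 41 and 184 in hearts and Cpt1a 339, 416 and 1192. Without the heart of animal 9, Pdk4 was called higher in liver (-1.56), where all animals gave -0.61 ± 0.67 and no call (adjusted p = 0.457). Cdkn1a had 798, 936 and 2009 in hearts, Lpin1 1179, 1123 and 2152 and Txnip 4392, 10962 and 14911, each highest in animal 9. In livers, Cdkn1a was lowest in animal 9 (174, 95.3 and 81.3) and Txnip highest in animal 8 (2100, 3908 and 3054). Of these genes, Lpin1 alone was highest in animal 9 in livers too (326, 290 and 378). The labels say nothing of feeding or of the time of collection, and their part in these values was not tested.

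Of the genes tested, 54 had no read in any of the 3 livers and 39 none in any of the 3 hearts. Catalase, Cat, had 3687, 3625 and 3492 scaled reads in hearts and 135245, 202500 and 220479 in livers (51.7-fold higher in liver). Fibronectin, Fn1, a product of both fibroblasts and hepatocytes, had 5551, 7347 and 8858 in hearts and 149193, 158729 and 219271 in livers (24.2-fold).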
